A study of Mus musculus with 10 samples.

Results

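The genes described here are those of glycolysis and of the cellular response to low oxygen, taken by name from a list of 34 symbols. Of these, 33 were present among the 34591 genes of the FPKM table, and all 33 passed the filter on low values in every comparison. *Pkm* was absent as a symbol, and its gene was listed under the older symbol *Pkm2*. The members were ordered by role into 4 transporters of glucose and lactate, 10 genes of upper glycolysis, 6 of lower glycolysis, 4 acting on pyruvate, 3 of oxygen sensing and 6 further targets of the hypoxia response. FPKM is the number of sequenced fragments scaled to the exon length of a gene and the depth of its library, so its levels can be compared between genes.

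RNA-seq had been performed on total RNA of mouse embryonic stem cells (mESCs) lacking a scaffold subunit of MiDAC, a histone deacetylase complex. The 5 lines, with 2 libraries each, were wild-type (WT) mESCs, D2A7 and D1E6 as *Dnttip1* KO and E2E8 and E2G7 as *Elmsan1* KO. All lines derived from the male C57/BL6 Bruce-4 line. The KO lines had been edited by CRISPR/Cas9 in serum with LIF and each grown from a single sorted cell, with indels that introduce a premature stop codon. The cells then grew without feeders in a defined medium with LIF and inhibitors of GSK3β and MEK, and no low-oxygen treatment is named. A clone is therefore 1 editing event. The study calls the libraries of a line biological replicates. Comparisons of a knockout pool both of its clones, so their p-values rest on the spread within and between clones. Those of single clones rest on the spread within lines. The *Dnttip1* transcript, which is still made from an allele with an indel, was at 8.45 and 8.35 FPKM in WT, 4.57 and 4.55 in D2A7 and 2.58 and 2.60 in D1E6. *Elmsan1*, listed as *C130039O16Rik*, was at 5.73 and 5.34 FPKM in WT and between 4.62 and 5.13 in the *Elmsan1* KO libraries, so that its RNA level is a weak check of those labels.

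Glycolysis splits glucose into pyruvate, and lactate dehydrogenase turns pyruvate into lactate where it is not oxidized in mitochondria. When oxygen is plentiful, prolyl hydroxylases mark the transcription factor HIF1A for destruction. When oxygen is low, HIF1A is stable, binds the core motif RCGTG beside its target genes and raises most glycolytic enzymes together with genes such as *Vegfa* and *Bnip3*. Pluripotent stem cells are known for a high rate of glycolysis.

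The promoters of the members show how often this core motif occurs near their starts. Its forms ACGTG and GCGTG were searched on both strands in the 250 bases before each start of a RefSeq transcript, using RefSeq windows of GRCm38.p6 whose sequence was located in NCBIM37, the build of the files. Windows were found for 32 of the 33 members, 46 in all. ACGTG lay in 24 of these windows (52.2%), against 16.6% of 32851 windows of the whole genome. GCGTG lay in 56.5% of member windows and 28.2% of all windows, and either form lay in 80.4% and 38.6%. The palindrome CACGTG, a core bound by MYC-type factors that holds ACGTG on both strands, lay in 13% of member windows and 6.02% of all windows. A match describes the sequence and is no evidence of binding, and its absence says only that these letters are not in the window. The windows of the whole genome were not matched to those of the members in base composition. The list itself was chosen for genes of the hypoxia response, and some windows of the same member overlap.

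The windows below are shown for the members whose full statistics follow and which have a window outside the annotated exons of GENCODE vM1. They are printed on the strand of the gene in NCBIM37, with ACGTG and GCGTG, read on either strand, in capitals. The windows of *Slc16a3* and *Eno2* overlap annotated exons by 14 and 61 bases and are left out. The first is that of *Ldha*, at chr7:54100924-54101173 on the + strand, which held 5 matches to ACGTG, 4 of them in the 2 copies of CACGTG, and a further *Ldha* window outside exons held 1 GCGTG. Those of *P4ha1* (chr10:58785794-58786043, + strand), *Pgam1* (chr19:41986111-41986360, + strand), *Aldoa* (chr7:133942769-133943018, - strand) and *Ddit4* (chr10:59414519-59414768, - strand) held 1 ACGTG each. Besides these, the windows of *P4ha1* and *Pgam1* held 2 GCGTG each, that of *Ddit4* 1 and that of *Aldoa* 0. Those of *Ldhb* (chr6:142456478-142456727, - strand) and *Pdk1* (chr2:71711031-71711280, + strand) held 1 GCGTG and no ACGTG. Those of *Vegfa* (chr17:46169327-46169576, - strand) and *Hk1* (chr10:61842657-61842906, - strand) held 0 matches to either form. A further window of each, which overlaps annotated exons, held 1 ACGTG and 1 GCGTG (*Vegfa*) and 3 GCGTG (*Hk1*).
Ldha: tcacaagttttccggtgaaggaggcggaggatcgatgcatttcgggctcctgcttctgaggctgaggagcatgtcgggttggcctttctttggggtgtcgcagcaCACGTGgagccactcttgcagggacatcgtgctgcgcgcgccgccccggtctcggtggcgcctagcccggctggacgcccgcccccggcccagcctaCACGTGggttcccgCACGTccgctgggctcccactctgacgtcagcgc
P4ha1: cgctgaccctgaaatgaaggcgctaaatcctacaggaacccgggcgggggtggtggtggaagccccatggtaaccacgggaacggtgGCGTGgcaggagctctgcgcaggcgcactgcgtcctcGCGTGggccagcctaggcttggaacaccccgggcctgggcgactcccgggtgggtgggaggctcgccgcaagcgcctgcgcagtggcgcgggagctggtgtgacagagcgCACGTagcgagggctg
Pgam1: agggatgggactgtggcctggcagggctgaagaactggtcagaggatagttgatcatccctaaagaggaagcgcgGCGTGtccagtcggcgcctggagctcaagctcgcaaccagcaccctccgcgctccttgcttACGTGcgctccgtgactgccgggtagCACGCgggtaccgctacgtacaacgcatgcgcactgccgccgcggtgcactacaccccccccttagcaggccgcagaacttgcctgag
Aldoa: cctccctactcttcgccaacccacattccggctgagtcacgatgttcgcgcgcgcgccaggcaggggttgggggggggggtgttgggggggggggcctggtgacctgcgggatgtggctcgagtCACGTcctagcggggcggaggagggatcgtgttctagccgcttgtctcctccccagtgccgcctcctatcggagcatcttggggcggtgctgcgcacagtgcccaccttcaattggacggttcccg
Ddit4: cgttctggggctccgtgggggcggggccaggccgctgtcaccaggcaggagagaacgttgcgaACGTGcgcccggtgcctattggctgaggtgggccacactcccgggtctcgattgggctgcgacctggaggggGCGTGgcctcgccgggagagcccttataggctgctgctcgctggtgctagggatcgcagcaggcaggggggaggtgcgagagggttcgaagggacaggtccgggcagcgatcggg
Ldhb: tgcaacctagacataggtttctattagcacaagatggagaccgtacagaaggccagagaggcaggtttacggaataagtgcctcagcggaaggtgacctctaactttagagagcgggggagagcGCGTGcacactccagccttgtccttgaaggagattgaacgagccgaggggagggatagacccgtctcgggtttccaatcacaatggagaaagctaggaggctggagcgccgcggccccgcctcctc
Pdk1: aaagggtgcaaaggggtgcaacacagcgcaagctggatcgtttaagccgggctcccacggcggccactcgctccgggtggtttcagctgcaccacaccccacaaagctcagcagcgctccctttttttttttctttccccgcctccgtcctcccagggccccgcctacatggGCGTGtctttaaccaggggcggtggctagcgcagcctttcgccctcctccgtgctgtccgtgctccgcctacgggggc
Vegfa: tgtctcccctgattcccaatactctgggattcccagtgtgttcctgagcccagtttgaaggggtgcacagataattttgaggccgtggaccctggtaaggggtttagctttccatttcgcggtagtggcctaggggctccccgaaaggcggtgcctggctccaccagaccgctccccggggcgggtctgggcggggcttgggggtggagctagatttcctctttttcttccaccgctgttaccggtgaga
Hk1: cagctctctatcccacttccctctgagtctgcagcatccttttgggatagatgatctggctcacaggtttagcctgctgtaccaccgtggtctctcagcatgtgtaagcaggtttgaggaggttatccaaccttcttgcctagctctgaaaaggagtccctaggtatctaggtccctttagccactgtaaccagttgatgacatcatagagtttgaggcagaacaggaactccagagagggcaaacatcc

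Markers of mESCs and of other cell types were checked in each library. The summed level of 8 pluripotency markers was 1290 to 1340 FPKM in WT, 1160 to 1260 in *Dnttip1* KO and 1070 to 1190 in *Elmsan1* KO libraries. Of these 8, 1 was higher and 1 lower than in WT in *Dnttip1* KO (limma, adjusted p under 0.05), where 5.19% and 4.28% of all genes were. In *Elmsan1* KO 1 was higher and 3 lower, where 5.62% and 4.91% were. The 1 higher was *Zfp42* in both knockouts. The 3, named after their values were seen, were *Sox2* (-0.46), *Nanog* (-0.35) and *Klf4* (-0.38), with limma adjusted p-values of 0.00725, 0.0241 and 0.0428. With a correlation within clones, as used below, 0.327% and 0.372% of all genes passed. The 7 fibroblast markers summed to at most 0.587 FPKM in any library and the 5 primitive endoderm markers to at most 1.38. The 5 primed and ectoderm markers, mostly *Otx2*, summed to 11.8 and 12 FPKM in WT, 3.5 to 12.4 in *Dnttip1* KO and 1.26 to 3.62 in *Elmsan1* KO libraries, and the 5 trophectoderm markers to 13 and 13.9 in WT, 19.7 to 32 in *Dnttip1* KO and 11.3 to 19.9 in *Elmsan1* KO libraries. Their part in the differences below was not tested. Library totals implied by the FPKM steps ran from 31099705 fragments in WT replicate 1 to 86463731 in E2G7 replicate 2, and both WT libraries were the shallowest. Each member rested on at least 93 fragments in every library. The chi-square between both libraries of a line had a mean of 57.6 per gene in WT and 5.41 to 6.33 in the clones, and a median of 1.39 in WT and 0.937 to 1.32 in the clones.

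Glycolytic RNAs were abundant in WT mESCs. *Pkm2*, the pyruvate kinase gene, was at 933 and 869 FPKM in WT, followed by *Gapdh*, encoding glyceraldehyde-3-phosphate dehydrogenase, at 403 and 373 FPKM and *Aldoa*, encoding the main aldolase, at 397 and 361. These ranges of *Gapdh* and *Aldoa* overlapped. *Slc2a3*, the high-affinity glucose transporter, at 292 and 292 FPKM exceeded *Slc2a1*, the basal one, at 72.3 and 65.1. *Hk2* was at 65.6 and 62.6 FPKM and *Hk1* at 10.7 and 10; both encode hexokinases, which trap glucose in the cell. The hypoxia targets ran from *P4ha2* at 0.497 and 0.465 FPKM to *Ddit4* at 16.2 and 15.1.

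**Figure D1:**
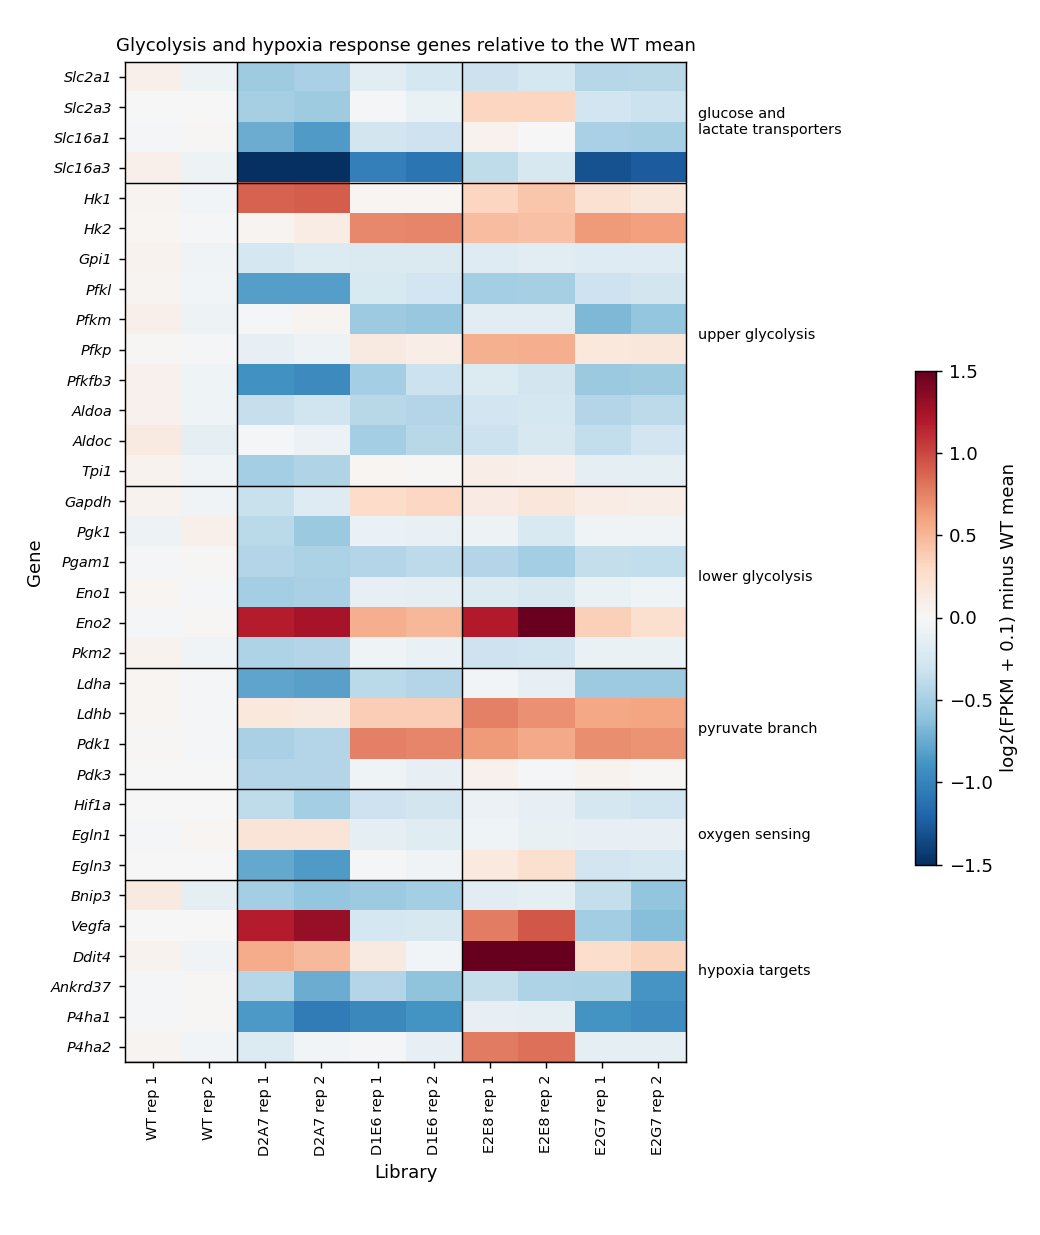
Heat map of the 33 members (rows, grouped by role) in the 10 libraries (columns). Colour gives the log2(FPKM + 0.1) of a library minus the mean of both WT libraries, on a scale that ends at -1.5 and 1.5. D2A7 has the most blue rows, E2E8 has red rows among the hypoxia targets, and libraries of the same clone look alike.

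To ask whether loss of DNTTIP1 changed these genes, the 4 *Dnttip1* KO libraries were compared with both WT libraries by limma on log2(FPKM + 0.1), adjusting p over all 17434 genes tested. At an adjusted p under 0.05, 9 members were lower and 0 higher, where 4.28% of all genes were lower, 5.19% higher and 9.47% either. With the correlation between libraries of a clone estimated (0.704), 0 members passed, where 0.327% of all genes did, and the lowest adjusted p of a member was 0.072 with an estimated correlation (limma). At an unadjusted p under 0.05, 13 were lower and 2 higher, and voom on the recovered fragments called 7 lower and 0 higher. The 9 were 1 transporter (*Slc16a3*), the upper glycolysis genes *Gpi1* and *Aldoa*, *Pgam1* of lower glycolysis, *Ldha*, *Hif1a* and the hypoxia targets *Bnip3*, *Ankrd37* and *P4ha1*. By the DEG rule of the study, a fold change of at least 1.5 with an unadjusted p under 0.01, 3 members were lower and 0 higher, where 3.25% of all genes were lower, 3.26% higher and 6.51% either. All 4 KO libraries lay below both WT libraries for 19 members, where this held for 20.8% of all genes, and above them for 3, where it held for 21.1%. The median log2 fold change was -0.27 over the members and 0.02 over all genes tested.

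*Slc16a3* (ENSMUSG00000025161, chr11:120809794-120822182) encodes MCT4, which exports lactate. Its level was 3.77 and 3.37 FPKM in WT, 0.998 and 0.988 in D2A7 and 1.71 and 1.62 in D1E6. All 4 *Dnttip1* KO libraries lay below WT, and the log2 fold change was -1.40 ± 0.26 (SE; limma, adjusted p = 0.0289).

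*Ldha* (ENSMUSG00000063229, chr7:54096845-54110997) encodes the lactate dehydrogenase subunit that favours lactate, and its promoter window above holds the most matches to ACGTG of those shown. It was at 150 and 145 FPKM in WT, 85.4 and 83.7 in D2A7 and 112 and 109 in D1E6. The *Dnttip1* KO and WT libraries did not overlap, with a log2 fold change of -0.61 ± 0.141 (SE; limma, adjusted p = 0.049).

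*P4ha1* (ENSMUSG00000019916, chr10:58786044-58836052) encodes a subunit of the collagen prolyl hydroxylase and is a HIF target. Its 11.9 and 12.3 FPKM in WT stood against 6.59 and 5.78 in D2A7 and 6.13 and 6.47 in D1E6. D2A7 minus D1E6 was -0.03 on the log2 scale, and the log2 fold change of the knockout was -0.94 ± 0.0738 (SE; limma, adjusted p = 0.00421).

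The other members that passed fell by less. *Hif1a*, the oxygen-labile transcription factor itself, was at 35 and 34.6 FPKM in WT and between 24.5 and 28.6 in *Dnttip1* KO libraries, with a log2 fold change of -0.37. *Bnip3*, which promotes the removal of mitochondria, had -0.54, *Ankrd37*, a HIF target, -0.55, and *Gpi1*, glucose-6-phosphate isomerase, -0.23. Their limma adjusted p-values were between 0.0272 and 0.0456. Among members that did not pass, *Eno2* was the one with the most positive log2 fold change, at 0.86 ± 0.261 (limma adjusted p = 0.0954), and *Gapdh* had 0.01.

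Libraries of a clone are more alike than clones. With that correlation estimated, 10 members were lower and 1 higher in *Dnttip1* KO at an unadjusted p under 0.05, and the limma adjusted p was 0.072 for *P4ha1*, 0.118 for *Slc16a3*, 0.15 for *Ldha* and between 0.0968 and 0.444 for the other 6. Leaving out WT replicate 1 or WT replicate 2 also left 0 members (9 and 10 lower at an unadjusted p under 0.05) in a fit that assumes the lone WT library to vary as the others do, where 0.0232% and 0.064% of all genes passed. Leaving out a single D2A7 or D1E6 library left 2 to 4.

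**Figure D2:**
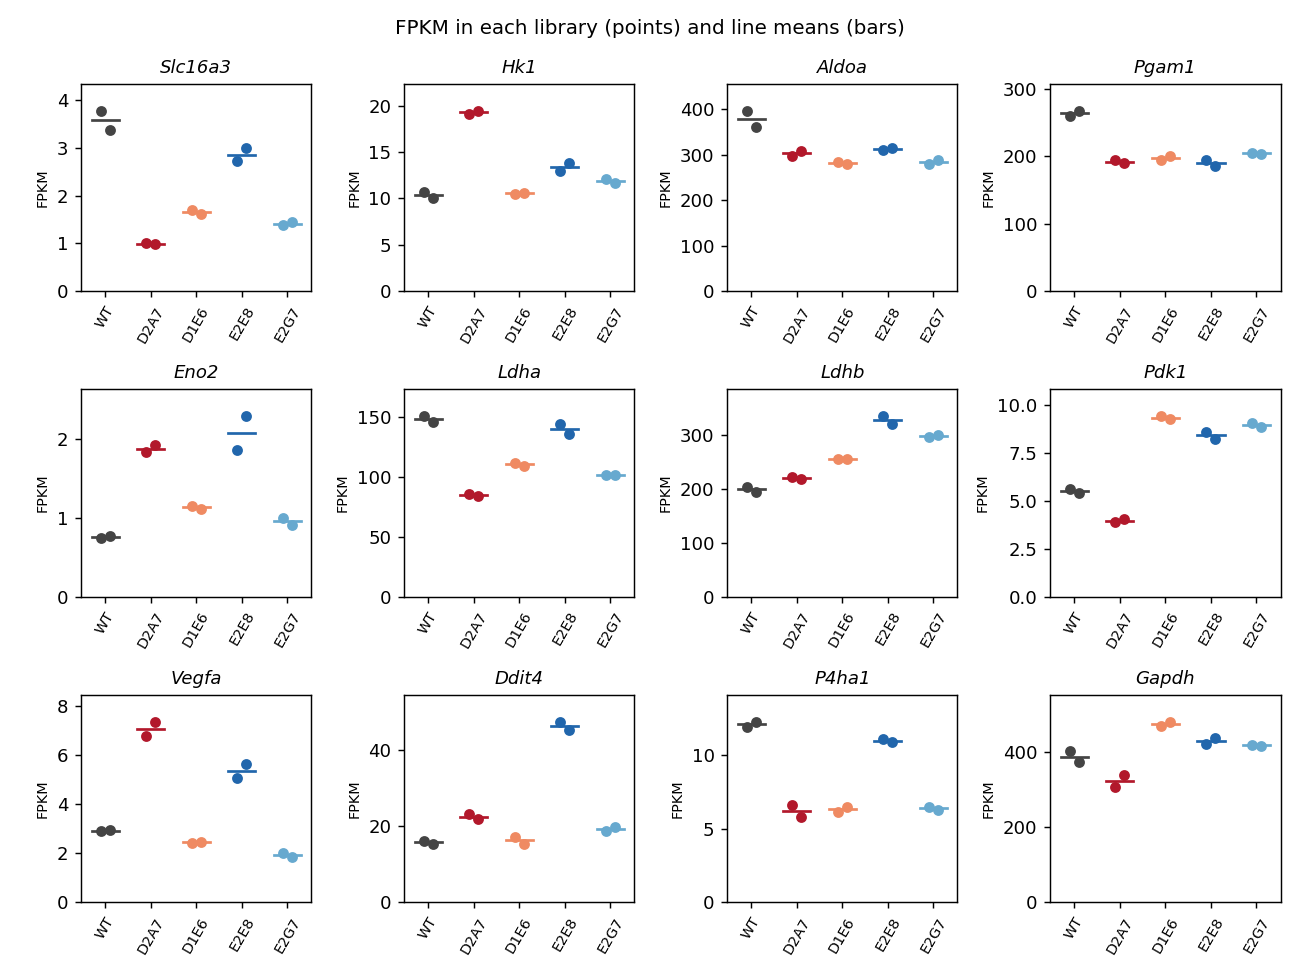
FPKM of 11 members with full statistics and of *Gapdh* in each library. Points are libraries, bars are means of a line, colours are lines and every axis starts at 0. *Pgam1* and *Aldoa* lie below WT in all 4 clones, *Ldhb* above, while *Vegfa*, *Pdk1* and *Hk1* differ between clones of the same knockout.

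The 4 *Elmsan1* KO libraries were then compared with the same WT libraries, so that both knockout comparisons share their control. Here 3 members were higher and 4 lower at an adjusted p under 0.05, where 10.5% of the 17212 genes tested passed, 5.62% higher and 4.91% lower. With the correlation between libraries of a clone estimated (0.768), 0 members passed, where 0.372% of all genes did, and the lowest adjusted p of a member was 0.0845 with an estimated correlation (limma). The 3 were *Ldhb*, *Pdk1* and *Hk2*, and the 4 were *Slc2a1*, *Pfkl*, *Aldoa* and *Pgam1*. *Ldhb* and *Pdk1* were also DEGs, where 2.74% of all genes were higher DEGs, and 0 members were lower DEGs, where 3.68% of all genes were (6.43% either). All 4 KO libraries lay below both WT libraries for 17 members and above them for 8, where this held for 21.8% and 21.3% of all genes. The median log2 fold change was -0.15 over the members and 0.00 over all genes tested, and 0 of the 3 oxygen sensing genes and 0 of the 6 hypoxia targets passed in limma, with 1 of each lower at an unadjusted p under 0.05.

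*Ldhb* (ENSMUSG00000030246, chr6:142438769-142456477) encodes the lactate dehydrogenase subunit that favours pyruvate. It was at 204 and 194 FPKM in WT, 335 and 320 in E2E8 and 297 and 300 in E2G7. The groups did not overlap, and the log2 fold change was 0.65 ± 0.0686 (SE; limma, adjusted p = 0.00556). *Ldhb* lies on chromosome 6, whose median was raised in these clones, and with each chromosome centred on WT the log2 fold change was 0.31 (limma adjusted p = 0.0226).

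*Pdk1* (ENSMUSG00000006494, chr2:71711281-71741915) encodes a kinase that keeps pyruvate out of the mitochondrial oxidation by inhibiting pyruvate dehydrogenase. It was at 5.6 and 5.43 FPKM in WT, 8.61 and 8.22 in E2E8 and 9.04 and 8.84 in E2G7. All 4 KO libraries were above WT, with a log2 fold change of 0.64 ± 0.0674 (SE; limma, adjusted p = 0.00546).

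*Hk2* was at 88.2 and 87.2 FPKM in E2E8 and 99.5 and 98.3 in E2G7, with a log2 fold change of 0.54 (limma adjusted p = 0.0106). It too lies on chromosome 6, and with chromosomes centred its log2 fold change was 0.20 (limma adjusted p = 0.279). *Slc2a1* had -0.36 and *Pfkl*, the liver form of phosphofructokinase, -0.40, with limma adjusted p-values of 0.03 and 0.0374.

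*Aldoa* and *Pgam1* moved by like amounts in each comparison. *Aldoa* (ENSMUSG00000030695, chr7:133938748-133944265) was at 397 and 361 FPKM in WT, 297 and 308 in D2A7, 284 and 280 in D1E6, 310 and 314 in E2E8 and 280 and 288 in E2G7. Every KO library was below both WT libraries, and the log2 fold changes were -0.37 ± 0.0671 in *Dnttip1* KO (SE; limma, adjusted p = 0.0271) and -0.35 ± 0.0751 in *Elmsan1* KO (limma, adjusted p = 0.0369). *Pgam1* (ENSMUSG00000011752, chr19:41986361-41993154), phosphoglycerate mutase, was at 260 and 268 FPKM in WT and between 186 and 205 in all 8 KO libraries. Its log2 fold changes were -0.44 ± 0.0471 (SE; limma, adjusted p = 0.00731) and -0.42 ± 0.0599 (limma, adjusted p = 0.0117).

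With the correlation within clones estimated, 4 members were lower and 4 higher in *Elmsan1* KO at an unadjusted p under 0.05, and the limma adjusted p was 0.0845 for *Ldhb*, 0.0926 for *Pdk1*, 0.1 for *Hk2* and 0.162 for *Pgam1*. Leaving out WT replicate 1 or WT replicate 2 also left 0 (4 and 6 lower and 4 and 3 higher at an unadjusted p under 0.05), where 0.195% and 0.331% of all genes passed. Leaving out a single E2E8 or E2G7 library left 1 or 2 of the 4 lower members. A direct comparison of the knockouts (4 libraries against 4) found 0 members passing in limma and 0 in voom, with 4 lower in *Dnttip1* KO at an unadjusted p under 0.05, where 6 of 17588 genes (0.0341%) passed. By the DEG rule 0 members differed either, where 1.52% of all genes did, so a difference between the knockouts was not shown for any single member.

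Each clone was next set against WT in a single fit of all 10 libraries, which takes the spread between libraries of a line as its error. This fit tests lines, and it calls 49.5% of all 17868 genes in D2A7, 40.7% in D1E6, 51.9% in E2E8 and 38.4% in E2G7. D2A7 had 23 members lower, where 22.3% of all genes were lower, and 6 higher, where 27.2% were. D1E6 had 18 lower and 6 higher (20.8% and 19.9% of all genes). E2E8 had 10 lower and 11 higher (24.4% and 27.6%), and E2G7 19 lower and 6 higher (20.2% and 18.2%). The median log2 difference from WT was -0.46, -0.16, -0.09 and -0.27 in that order, where the medians of all genes were between -0.01 and 0.04. As DEGs, D2A7 had 8 members lower and 3 higher, where 5.49% and 10.8% of all genes were (16.3% either). D1E6 had 2 lower and 2 higher (5.94% and 5.04% of all genes, 11% either). E2E8 had 0 lower and 6 higher (5.93% and 10.2%, 16.1% either), and E2G7 4 lower and 2 higher (6.4% and 3.55%, 9.95% either).

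D2A7 was the clone with the lowest transporter levels. *Slc16a1*, encoding MCT1, was at 59 and 60 FPKM in WT, 35.5 and 32.8 in D2A7, 49.3 and 48.1 in D1E6, 61.5 and 59.1 in E2E8 and 42.4 and 42 in E2G7. *Slc2a3* was at 206 and 202 FPKM in D2A7 and at 364 and 364 in E2E8, on opposite sides of WT. It lies on chromosome 6, and beyond the median of that chromosome it had -0.43 in D2A7 and -0.07 in E2E8. *Slc2a1* was lower than in WT in every clone, with log2 differences from -0.51 in D2A7 to -0.22 in D1E6. *Slc16a3*, which had fallen in *Dnttip1* KO, had -1.28 in E2G7 (limma adjusted p = 2.35e-05) and -0.31 in E2E8 (limma adjusted p = 0.0126).

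The phosphofructokinase genes differed among themselves in their values. *Pfkl* was lower in each clone (log2 differences of -0.83, -0.26, -0.50 and -0.30 for D2A7, D1E6, E2E8 and E2G7). The muscle form *Pfkm* was lower in D1E6 (-0.56), E2E8 (-0.16) and E2G7 (-0.63) and had 0.01 in D2A7. The platelet form *Pfkp* had -0.10, 0.12, 0.54 and 0.16 in the same order. *Pfkfb3*, whose product makes the activator of phosphofructokinase, was at 1.31 and 1.2 FPKM in WT and 0.618 and 0.598 in D2A7. *Tpi1*, triose phosphate isomerase, was lower in D2A7 (-0.48) and had 0.02 in D1E6. It lies on chromosome 6. Beyond the median of that chromosome it had -0.40, -0.40, -0.30 and -0.43 in D2A7, D1E6, E2E8 and E2G7. *Aldoc*, the brain aldolase, was between 3.34 and 5.28 FPKM in all libraries, and its replicates in WT spanned 4.35 to 5.28.

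In lower glycolysis, D2A7 had the lowest *Pkm2*, *Eno1*, *Pgk1* and *Gapdh*. *Pkm2* was at 652 and 661 FPKM in D2A7, 724 and 732 in E2E8, and between 838 and 858 in D1E6 and E2G7. *Eno1*, the widely used enolase, had -0.50 in D2A7 and between -0.22 and -0.09 in the others. *Pgk1*, phosphoglycerate kinase, had -0.48 in D2A7 and did not pass in the other 3 clones (-0.15 to -0.05). *Eno2* (ENSMUSG00000004267, chr6:124710071-124719691), the neuronal enolase, ran the other way at a low level: 0.751 and 0.766 FPKM in WT, 1.84 and 1.93 in D2A7, 1.16 and 1.11 in D1E6, 1.86 and 2.29 in E2E8, and 1 and 0.917 in E2G7. All 8 KO libraries were above WT, and the knockout comparisons gave 0.86 ± 0.261 and 0.82 ± 0.38 on the log2 scale (SE; limma, adjusted p = 0.0954 and 0.219). Beyond the median of chromosome 6, *Eno2* had 1.29 in D2A7, 0.10 in D1E6, 0.95 in E2E8 and 0.01 in E2G7.

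Clones of the same knockout were compared directly in that fit. Between D2A7 and D1E6, 7 members were higher and 19 lower in D2A7, where 24.5% and 18.9% of all genes were (43.4% either). As DEGs, 3 were higher and 4 lower, where 9.36% and 3.73% of all genes were (13.1% either). Between E2E8 and E2G7, 19 were higher and 5 lower in E2E8, where 26.9% and 20.2% of all genes were (47% either). As DEGs, 7 were higher and 0 lower, where 9.55% and 2.95% of all genes were (12.5% either). The median difference was -0.22 for D2A7 minus D1E6 and 0.17 for E2E8 minus E2G7, where all genes had 0.04 and 0.05. In E2E8 minus E2G7, 5 of 6 hypoxia targets passed as higher, and in D2A7 minus D1E6 2 of 6 did.

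*Vegfa* (ENSMUSG00000023951, chr17:46153942-46169326), the growth factor for blood vessels and a classical HIF target, had the largest difference between clones. It was at 2.91 and 2.93 FPKM in WT, 6.75 and 7.35 in D2A7, 2.42 and 2.45 in D1E6, 5.06 and 5.64 in E2E8 and 2 and 1.83 in E2G7. In each knockout 1 clone lay above WT and the other below, so D2A7 minus D1E6 was 1.49 ± 0.0718 (SE; limma, adjusted p = 4.93e-06) and E2E8 minus E2G7 1.43 ± 0.0718 (limma, adjusted p = 1.13e-05). The pooled log2 fold changes, 0.50 and 0.13, therefore describe neither clone.

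*Ddit4* (ENSMUSG00000020108, chr10:59412423-59414518) encodes REDD1, an inhibitor of mTORC1 induced by hypoxia and by other stresses. It was at 16.2 and 15.1 FPKM in WT, 23 and 21.9 in D2A7, 17.2 and 15.2 in D1E6, 47.3 and 45.1 in E2E8 and 18.8 and 19.8 in E2G7. E2E8 stood far above all other lines, by 1.26 ± 0.0648 over E2G7 (SE; limma, adjusted p = 1.2e-05). In E2E8, 11 of 12 listed genes of the ATF4 stress response were also higher than in WT and 0 lower, where 27.6% and 24.4% of all genes were. The median of the 12 was 0.59. Among them were *Ddit3* (1.77), *Atf3* (2.02), *Chac1* (1.10) and *Trib3* (0.79). These were DEGs in E2E8 but in neither knockout comparison with WT, and are named after their values were seen. In E2G7, D2A7 and D1E6, 8, 6 and 5 of the 12 were higher, where 18.2%, 27.2% and 19.9% of all genes were. In the same order 0, 2 and 2 were lower, where 20.2%, 22.3% and 20.8% of all genes were. The medians of the 12 were 0.19, 0.11 and 0.11. In *Dnttip1* KO 1 of the 12 was higher and 0 lower, where 5.19% and 4.28% of all genes were. In *Elmsan1* KO 2 were higher and 0 lower, where 5.62% and 4.91% were. *Slc7a5* was higher in both (0.56 and 0.86, limma adjusted p = 0.0416 and 0.0164) and a DEG in *Elmsan1* KO. It lies on chromosome 8, whose median was raised in all 4 clones. With the correlation within clones estimated, 0 of the 12 passed in either knockout. The part of this response in the *Ddit4* level was not tested.

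*P4ha1* was at 11.1 and 10.9 FPKM in E2E8, near WT, and at 6.47 and 6.26 in E2G7, a difference of 0.78 ± 0.0614 (SE; limma, adjusted p = 5.94e-05). Its relative *P4ha2*, also a collagen prolyl hydroxylase subunit, was at 0.896 and 0.932 FPKM in E2E8 and between 0.402 and 0.497 in all other libraries. The oxygen sensor *Egln3*, a prolyl hydroxylase that HIF itself induces, was at 1.25 and 1.18 FPKM in D2A7, 2.22 and 2.2 in WT and between 1.8 and 2.63 in the other KO libraries. *Egln1*, the main oxygen sensor, was between 3.37 and 4.37 FPKM in all libraries. Against WT it passed as higher in D2A7 (0.19) and as lower in D1E6 (-0.16). It did not pass in E2E8 (-0.09) or E2G7 (-0.13). Beyond the median of chromosome 8, where it lies, it had -0.18, -0.53, -0.44 and -0.48 in D2A7, D1E6, E2E8 and E2G7.

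*Pdk1* differed in *Dnttip1* KO. It was at 3.89 and 4.04 FPKM in D2A7 and 9.42 and 9.25 in D1E6, on opposite sides of WT, and D2A7 minus D1E6 was -1.21 ± 0.0401 (SE; limma, adjusted p = 1.79e-06). *Hk1* (ENSMUSG00000037012, chr10:61731603-61842656) was at 19.1 and 19.5 FPKM in D2A7 and between 10 and 13.8 in all other libraries, and D2A7 minus D1E6 was 0.87 ± 0.0427 (SE; limma, adjusted p = 5.57e-06). *Hk2* differed the other way, at 65.9 and 69.5 FPKM in D2A7 and 106 and 106 in D1E6. *Ldha* was at 144 and 136 FPKM in E2E8 and 101 and 101 in E2G7, a difference of 0.47 ± 0.035 (SE; limma, adjusted p = 4.8e-05).

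**Figure D3:**
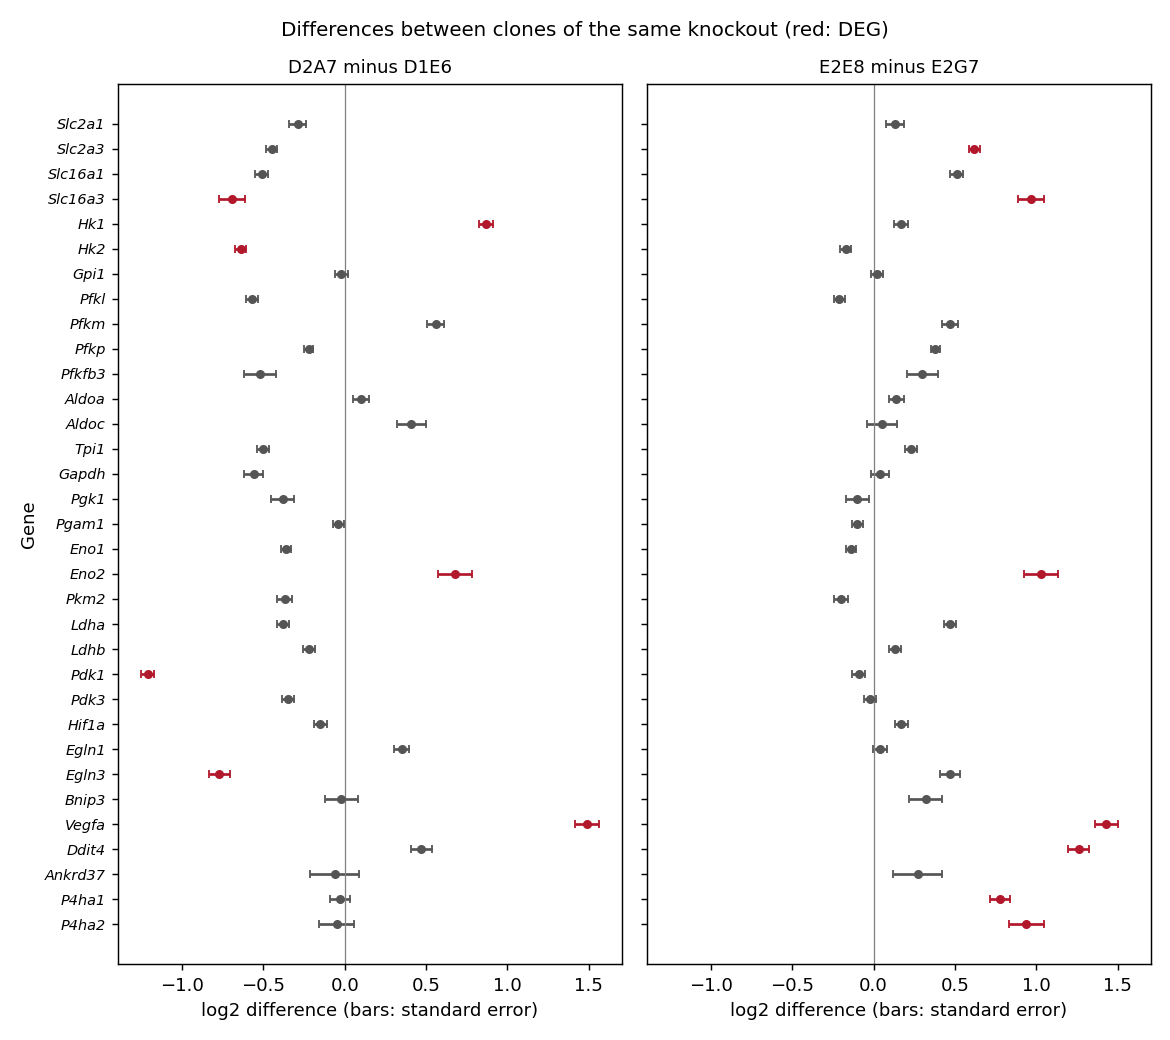
Log2 difference between clones of the same knockout for the 33 members (points), with the standard error of the five-line fit (bars) and DEGs in red. *Vegfa* is at 1.49 and 1.43, *Pdk1* at -1.21 and -0.09, and most points lie left of 0 for D2A7 minus D1E6 and right of 0 for E2E8 minus E2G7.

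Each member was also set beside the chromosome it lies on. Chromosome 6 holds 6 members (*Slc2a3*, *Hk2*, *Tpi1*, *Gapdh*, *Eno2* and *Ldhb*), and its 542 genes averaging 1 FPKM or more had a median log2 difference from WT of -0.08 in D2A7, 0.42 in D1E6, 0.39 in E2E8 and 0.29 in E2G7. In D1E6, 87.1% of these genes were higher than in WT. The 6 members had medians of -0.09, 0.33, 0.39 and 0.21 in that order, and -0.01, -0.10, 0.00 and -0.08 beyond the median of their chromosome. The other 27 members had -0.46, -0.25, -0.15 and -0.30. Chromosome 8, with *Ankrd37* and *Egln1*, had medians of 0.37, 0.37, 0.35 and 0.36, and *Ankrd37* stood at -0.96, -0.89, -0.76 and -1.04 relative to its chromosome. The number of copies of these chromosomes was not measured.

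**Figure D4:**
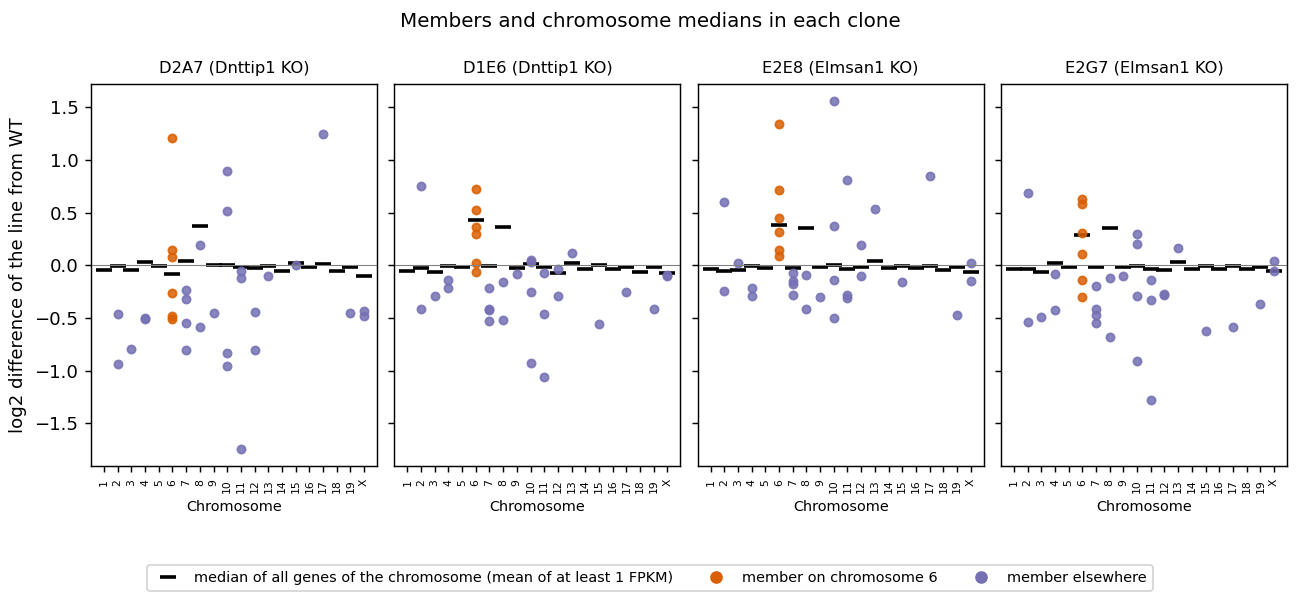
Log2 difference of each clone from WT for the members (points, orange on chromosome 6) by chromosome, with the median of all genes of a chromosome that average 1 FPKM or more (black bars). The bar of chromosome 6 lies at 0.42, 0.39 and 0.29 in D1E6, E2E8 and E2G7 and at -0.08 in D2A7, and that of chromosome 8 is raised in all 4 clones.

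*Gapdh* (ENSMUSG00000057666, chr6:125111871-125116485) was the reference gene of the qRT-PCR of the study. It was at 403 and 373 FPKM in WT, 306 and 338 in D2A7, 470 and 481 in D1E6, 421 and 437 in E2E8 and 418 and 417 in E2G7. D2A7 lay below WT by -0.27 and D1E6 above by 0.29 on the log2 scale (limma adjusted p = 0.00577 and 0.00471), and D2A7 minus D1E6 was -0.56 ± 0.0569 (SE; limma, adjusted p = 0.000159). E2E8 and E2G7 had 0.15 and 0.11 and did not pass (limma adjusted p = 0.0627 and 0.181). The median of chromosome 6 itself was -0.08 in D2A7 and 0.42 in D1E6. Beyond the median of that chromosome, *Gapdh* had -0.19, -0.13, -0.24 and -0.18 in D2A7, D1E6, E2E8 and E2G7. The primers of that assay are shown because they place the amplicon, in capitals throughout since the whole primer is the matched part.
Forward: TGTGTCCGTCGTGGATCTGA
Reverse: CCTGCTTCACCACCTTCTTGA
The forward primer matched chr6:125112516-125112535 in exon 5 of *Gapdh* and the reverse primer chr6:125112375-125112395 in exon 6. Both also matched elsewhere without a mismatch, with 40 and 130 perfect matches in NCBIM37 in all, since *Gapdh* has many processed copies. How the authors counted reads that fit several copies is not given in the sources used here, so the levels of *Gapdh* and of other enzymes with processed copies are uncertain to that extent.

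Other genes of these pathways were followed as lists, to be read against the 5.19% of all genes that were higher and 4.28% lower in *Dnttip1* KO, and 5.62% and 4.91% in *Elmsan1* KO. With the correlation within clones estimated, 0 genes of these lists passed in either knockout, and their lowest adjusted p with an estimated correlation was 0.0581 and 0.0791 (limma). Of the 24 paralogues and neighbours of the glycolytic enzymes, 17 were tested in *Dnttip1* KO, of which 1 rose (*Pfkfb2*, 0.70, limma adjusted p = 0.0211) and 1 fell (*Pgm2*, -0.69, limma adjusted p = 0.0288). In *Elmsan1* KO, 16 were tested, of which *Pfkfb2* (0.69) and *Pgam2*, the muscle mutase (0.78), rose and *Fbp2*, a fructose bisphosphatase of gluconeogenesis (-1.49), fell. Among the 11 tested genes of pyruvate oxidation 0 passed in limma in either knockout, with 2 lower in *Dnttip1* KO and 1 higher in *Elmsan1* KO at an unadjusted p under 0.05. In the pentose phosphate pathway 1 of 7 rose in *Dnttip1* KO, *Rpia* (0.42, limma adjusted p = 0.0321), which lies on chromosome 6 and had 0.25 with chromosomes centred on WT (limma adjusted p = 0.4). In *Elmsan1* KO 0 passed (1 higher and 1 lower at an unadjusted p under 0.05). By the DEG rule *Pgls* was higher there (0.82, limma adjusted p = 0.0518), where 2.74% of all genes were higher DEGs. It lies on chromosome 8, whose medians were 0.35 and 0.36 in E2E8 and E2G7. *Rpia*, *Vhl* and *Mycn* are named for being the only such gene of a list, after their values were seen.

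Among 11 regulators of the HIF pathway, 1 rose and 1 fell in each knockout. The 1 that rose was *Vhl*, the recognition subunit of the ligase that destroys HIF1A (0.54 and 0.36, limma adjusted p = 0.0104 and 0.0177), and the 1 that fell was *Cited2*, which competes with HIF1A for its coactivators (-0.74 and -1.10, limma adjusted p = 0.0379 and 0.00598). *Vhl* lies on chromosome 6, and with chromosomes centred on WT it had 0.37 and 0.03 (limma adjusted p = 0.356 and 0.801). Of 34 other hypoxia response genes, 33 were tested, of which 3 rose and 5 fell in *Dnttip1* KO and 1 rose and 2 fell in *Elmsan1* KO, and the medians were -0.08 and -0.09. The list held members moving in opposite directions, such as *Plod1* (0.84) and *Bhlhe40* (0.71) against *Stc2* (-1.28), *Bhlhe41* (-0.92) and *Car12* (-0.75) in *Dnttip1* KO. With chromosomes centred, *Bhlhe40*, on chromosome 6, and *Car12* no longer passed (limma adjusted p = 0.0815 and 0.0626). Of 7 genes of the MYC and MAX network, 0 passed in *Dnttip1* KO (1 higher and 1 lower at an unadjusted p under 0.05) and 1 fell in *Elmsan1* KO, *Mycn* (-0.41, limma adjusted p = 0.0345; 0.0715 with chromosomes centred).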

How the data were processed

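RNA-seq was performed on 5 mESC lines with 2 libraries each. The authors made stranded total RNA libraries, sequenced both ends, mapped the reads to NCBIM37, obtained gene counts from HT-seq and deposited FPKM values. Their processing notes also name limma and R 3.3.1. Their methods name GENCODE vM20, but 97.2% of gene identifiers are in vM1, which gave positions and exon lengths.

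Samples were grouped by the genotype and clone in their labels. FPKM were divided by a factor per library (0.965 to 1.013; the median ratio over the 11270 genes never below 1 FPKM). A gene entered a fit if 2 or more of its libraries reached 0.1 FPKM. Tests were made by limma 3.58.1 (R 4.3.3) on log2(FPKM + 0.1), two-sided and with a variance trend, and p was adjusted by Benjamini-Hochberg over every gene tested. All adjusted p-values are from limma, and all fold changes are on the log2(FPKM + 0.1) scale, which understates those of low genes. Knockout comparisons held 4 libraries against 2, clone comparisons a single fit of 10. FPKM times exon length gave whole fragments (within 0.02) for 98.1% to 98.4% of values under 100 fragments, which gave the depth and an alternative with voom. An exact permutation test of 4 libraries against 2 cannot go below 0.0667. The fits were tested on simulated data that held no differences between clones, so this does not show how they behave where clones differ.

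Full statistics were given for members that were DEGs in a knockout comparison, passed in both, or were among the 3 largest differences between clones. Context genes named were DEGs in a knockout comparison, at most 6 a paragraph, with exceptions named, among them the ATF4 genes given for E2E8. The members and lists were chosen with earlier results of these data known. Alternatives were other pseudocounts, filters, normalizations and call rules, no variance trend, other sets of libraries, a correlation within clones, a replicate block, chromosome centring, voom and each library left out. Tables and figures were made with Python 3.11.15.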

Additional observations from a re-analysis of the deposited data

Results flagged for a closer look

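The results below stood out because the clones of a knockout differed from each other by at least 1.5-fold. The test of that difference was limma in a single fit of all 10 libraries. By the DEG rule, which has the same 1.5-fold limit, 13.1% of all genes differed between D2A7 and D1E6 and 12.5% between E2E8 and E2G7. With no limit on the size of the difference, 43.4% and 47% passed. For D2A7 minus D1E6 on the log2 scale, the flagged members were *Vegfa* (1.49), *Hk1* (0.87), *Eno2* (0.68), *Hk2* (-0.64), *Slc16a3* (-0.69), *Egln3* (-0.77) and *Pdk1* (-1.21). For E2E8 minus E2G7 they were *Vegfa* (1.43), *Ddit4* (1.26), *Eno2* (1.03), *Slc16a3* (0.97), *P4ha2* (0.94), *P4ha1* (0.78) and *Slc2a3* (0.62). *Hk2*, *Eno2* and *Slc2a3* lie on chromosome 6. Its median differed from WT by -0.08 in D2A7, 0.42 in D1E6, 0.39 in E2E8 and 0.29 in E2G7. Beyond that median, *Hk2* had 0.16 in D2A7 and 0.30 in D1E6, and *Slc2a3* had -0.07 in E2E8 and -0.59 in E2G7. *Eno2* had 1.29, 0.10, 0.95 and 0.01 in D2A7, D1E6, E2E8 and E2G7. Apart from such centring, the part of the chromosome in these differences was not tested.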

How the results depend on the processing

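The 9 lower members of *Dnttip1* KO became 0 with a correlation within clones, 2 with a replicate block, 3 as DEGs and 0 to 4 with a library left out. The 4 lower members of *Elmsan1* KO became 1 without the variance trend, 0 with the correlation, 1 with the replicate block, 0 as DEGs and 0 to 2 with a library left out. Its 3 higher members became 0 with the correlation, 1 with all 10 libraries in one fit and 0 at the lowest with a library left out, which was either WT library. As DEGs, the members called in D2A7, D1E6, E2E8 and E2G7 went from 29, 24, 21 and 25 to 11, 4, 6 and 6, and those between clones from 26 to 7 (D2A7 and D1E6) and from 24 to 7 (E2E8 and E2G7). The replicate numbers did not pair the libraries: the deviations of same-numbered libraries correlated by -0.139 to 0.192 between lines.

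Of 984 alternative values for 51 single results, 824 kept direction and call, 148 lost the call, 5 gained it and 7 turned sign. *Ldhb* in D2A7 minus D1E6 went from -0.22 to 0.29 with chromosomes centred on WT. *Pdk1* in *Dnttip1* KO ranged from -0.06 (without either D1E6 library) to 0.35 with a library left out. *Vegfa* in *Elmsan1* KO was -0.08 and -0.13 without E2E8 replicate 1 and 2, and up to 0.39 without another library. *P4ha1* in D2A7 minus D1E6 was 0.06 without D2A7 replicate 2 and 0.01 without D1E6 replicate 2, and down to -0.12 without another library. The cause was not tested. The pseudocount of 0.01 or 1 and the filter at a mean of 1 FPKM changed no call of these 51. With 2 clones a knockout, an effect of DNTTIP1 or ELMSAN1 and a difference between single-cell clones cannot be told apart, and the 2 WT libraries are the shallowest.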
